A study of Homo sapiens with 4 samples.

Results

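The genes described here encode the proteins of the cytosolic ribosome. They were taken by name from the protein-coding genes of GENCODE release 29: every symbol beginning with RPL or RPS and a digit, with RPLP0, RPLP1, RPLP2 and RPSA, and without the S6 kinases, the Y-linked RPS4 copies, RPS19BP1 and RPS27L. The rule found 87 genes among the 58735 in the count files, of which 31 encode small-subunit proteins, 46 large-subunit proteins, 7 are paralogs of large-subunit genes and 3 are readthrough genes that join a ribosomal protein gene to its neighbour. The tested cells were A549, an established human lung adenocarcinoma line that the labels call alveolar basal epithelial, infected with a lentivirus carrying a hairpin against RALY (shRALY, labelled RALY knockdown). The controls were A549 cells that received a virus with a control hairpin (shControl, labelled WT). Both groups were labelled day 2, and each had 2 libraries. The labels give neither the hairpin sequences nor their number. They do not say that replicates came from separate cultures, so the p-values below reflect library-to-library spread that may be technical.

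A ribosome is built from a small subunit, which reads the mRNA, and a large subunit, which joins amino acids, and each holds 1 copy of nearly every one of its proteins. Ribosomal protein genes are among the most highly expressed genes of a dividing cell. Their mRNAs begin with a stretch of pyrimidines, the 5′ terminal oligopyrimidine (TOP) element, through which mTORC1 and LARP1 control their translation. Some ribosomal proteins also act outside the ribosome: RPL5 and RPL11 bind MDM2, a ubiquitin ligase, and mutations of RPS19 and RPS26 are found in Diamond-Blackfan anaemia.

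The start sites of these genes show what they share in sequence and where the members that changed most do and do not differ from it. Each line gives 30 bases from RefSeq (GRCh38.p14), from 10 bases before the annotated start to 20 bases from it, 5′ to 3′, with the longest run of C and T in capitals.
RPS26 (chr12:56041908-56041937, plus strand): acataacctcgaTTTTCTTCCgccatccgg
RPS13 (chr11:17077648-17077677, minus strand): ctctcgCTCTCCTTTCgttgcctgatcgcc
RPS4X (chrX:72277229-72277258, minus strand): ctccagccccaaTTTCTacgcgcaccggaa
RPL22L1 (chr3:170870176-170870205, minus strand): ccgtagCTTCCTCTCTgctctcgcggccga
RPL39 (chrX:119791611-119791640, minus strand): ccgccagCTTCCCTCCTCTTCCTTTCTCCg
RPS19 (chr19:41860245-41860274, plus strand): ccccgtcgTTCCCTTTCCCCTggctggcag
The RefSeq table held a window for 69 of the 87 genes. A run of at least 10 bases of C or T, read on the gene's strand, stood in 49 of these 69 windows (71.0%), against 5.83% of 35116 promoter windows of all genes. The longest run had a median of 11 bases in the members and 4 bases in all promoters. It was 9 bases in RPS26 and 10 bases in RPS13, the members that fell most, 5 bases in RPS4X, and 13 bases in RPS19, the member that rose most. The median was 12 bases in the 10 members called higher and 10 bases in the 15 matched members called lower. It was 11 bases in the 41 not called. A run of at least 10 bases stood in 8, 12 and 28 of these windows, so most but not all members of each group had one. A run is a description of these letters and not a mapped TOP element.

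The hairpin's target gene checked the labels. RALY had 40.9 and 41.5 CPM (normalised read count, scaled to library size with TMM factors) in shRALY libraries, against 123 and 133 CPM in shControl libraries (log2 fold change -1.64, SE 0.11; edgeR adjusted p = 5.85e-11). Total counts were 16745818 to 18632787 per library. Of the markers checked, the epithelial keratin genes KRT8 and KRT18 stood at 3493 to 3954 CPM and 1595 to 1703 CPM, while EPCAM stood at 2.29 to 3.54 CPM. KRT19 (log2 fold change 1.71; edgeR adjusted p = 1.35e-11) and CDH1 (log2 fold change 0.47; edgeR adjusted p = 0.019), also epithelial markers, were higher in shRALY. The basal markers KRT5 and KRT14 were at or below 0.37 CPM in every library. The surfactant genes SFTPA1, SFTPA2, SFTPB and SFTPC were at or below 0.22 CPM in every library, so these basal and alveolar markers were absent or nearly so. AGER, the other alveolar marker checked, stood at 1.29 to 2.45 CPM and was not called (log2 fold change 0.72; edgeR adjusted p = 0.125). The 3 basal markers summed to 1.41 and 1.96 CPM in shRALY libraries, against 3.41 and 3.29 CPM in shControl libraries, nearly all of it TP63. The 4 immune markers summed to 5.14 to 8.32 CPM and the 4 fibroblast markers to 13.7 to 18.5 CPM over all libraries, and the part of any of these markers in the results was not tested.

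Most ribosomal protein genes lay close to their control level, and a few lay far from it. Of the 87 genes, 82 passed the filter on low counts and were tested. In shRALY cells 10 of them were higher and 17 lower at an edgeR adjusted p under 0.05, or 32.9% called, against 41.0% of the 15912 genes tested. Higher calls made up 12.2% of members against 20.6% of all genes, and lower calls 20.7% against 20.4%. The median log2 fold change (shRALY over shControl) was -0.06 over the members and -0.01 over all genes tested, and 76 of the 82 members lay within 0.5 of 0 on the log2 scale. Among protein-coding genes 45.4% were called. At least 2-fold change was reached by 3 called members, RPS26, RPS13 and RPL39L, against 13.6% of all genes tested. The libraries of the groups did not overlap for 56 of the 82 members (68.3%), against 69.7% of all genes tested. The counts depend on the setting: with a correction for GC content and length 11 members were higher and 37 lower. With that correction 50.3% of all genes tested were called. With library size as the only scaling 6 were higher and 20 lower, where 41.5% of all genes tested were called.

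Most calls were lost when 1 shRALY library was left out, where the spread comes from the 2 shControl libraries alone. The log2 fold change of RPL4 was then -0.44 without shRALY replicate 1 and -0.40 without replicate 2. Its SE was 0.18 and 0.17, against 0.09 in the main fit. RPS27 did move, from 0.34 to 0.14 without shRALY replicate 2. Calls over all genes tested also became fewer without either shRALY library. The small-subunit median log2 fold change was -0.055 without shRALY replicate 1 and -0.018 without replicate 2. The large-subunit median was -0.097 and 0.004 in the same order. The 5 members called in all 18 alternative settings were RPS26, RPS13, RPL39L, RPL22L1 and RPS19. For the 22 other called members, an edgeR adjusted p over 0.05 was found without shRALY replicate 2 (0.0809 to 0.662), and for 17 of them also without shRALY replicate 1 (0.0559 to 0.416). Without shControl replicate 1 RPS27A, RPL35 and RPS27 were not called, and without shControl replicate 2 RPS27 was not.

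RPS26 fell furthest. RPS26 (ENSG00000197728, chromosome 12, 56041351 to 56044697 on the plus strand of GRCh38) encodes a small-subunit protein that lies at the mRNA exit channel and contacts mRNA upstream of the start codon. It had 297 and 269 reads in shRALY libraries, against 3823 and 3507 reads in shControl libraries. In normalised units these were 16.2 and 16.4 CPM in shRALY libraries, against 213 and 206 CPM in shControl libraries. The replicates of each group lay close together and the groups were far apart. The mean was 16.3 ± 0.205 CPM in shRALY and 209.7 ± 5.35 CPM in shControl (SD, n = 2 each), so RPS26 stood at 7.78% of its control level, 12.9-fold lower (log2 fold change -3.68, SE 0.12; edgeR adjusted p = 2.69e-16). It ranked 27th from the lowest among the 15912 genes tested. Over the 18 alternatives the log2 fold change stayed between -3.77 and -3.65, with an adjusted p of at most 1.12e-14.

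RPS26 has near-identical copies, and the sources used here do not say how reads matching several places were counted. Its coding sequence of 345 bases stands whole in the transcribed processed pseudogene AC004057.1 (chromosome 4, 113214046 to 113217170 on the minus strand), as its first 60 bases show, with the start codon in capitals.
RPS26 and AC004057.1: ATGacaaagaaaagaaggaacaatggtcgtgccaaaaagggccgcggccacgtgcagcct
All 50-base words of the RPS26 coding sequence occur in a transcript of another gene, so its counts are uncertain. AC004057.1 had 78 and 31 reads in shRALY libraries, against 232 and 252 reads in shControl libraries, and was lower too (log2 fold change -2.16; edgeR adjusted p = 5.29e-07). All 26 genes that share words with RPS26 held 84 and 35 reads together in shRALY libraries, against 257 and 265 reads in shControl libraries. These 26 genes share from 0.34% to 100% of the RPS26 words, so not all of them are near-identical. RPS26 and the 26 genes summed to 20.7 and 18.6 CPM in shRALY libraries, against 228 and 221 CPM in shControl libraries. The fall was thus seen in the sum as well, though any reads left out for matching several places would be missing from it too. Over all genes tested, 20.6% were higher and 20.4% lower. Of the 12 other tested genes within 100 kb of RPS26, 4 were higher, 3 lower and 5 not called, with log2 fold changes from -1.63 to 1.34. One of them is RPL41, another member, which was higher.

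RPS13 was the second to fall. RPS13 (ENSG00000110700, chromosome 11, 17074389 to 17077787 on the minus strand) encodes a small-subunit protein that binds the small-subunit ribosomal RNA. It had 99.0 and 94.7 CPM in shRALY libraries, against 253 and 230 CPM in shControl libraries, without overlap. The mean was 96.8 ± 3.04 CPM in shRALY and 241.8 ± 16.2 CPM in shControl (SD, n = 2 each), 2.50-fold lower (log2 fold change -1.32, SE 0.11; edgeR adjusted p = 9.44e-10). Of its 50-base coding words, 33.9% occur in another gene, the pseudogene RPS13P2 sharing the most, so its count is uncertain to that extent. Adding the reads of named pseudogenes left its log2 fold change at -1.32.

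RPS19 was the member that rose most. RPS19 (ENSG00000105372, chromosome 19, 41859918 to 41872926 on the plus strand) encodes a protein of the small-subunit head. It had 2201 and 2292 CPM in shRALY libraries, against 1464 and 1510 CPM in shControl libraries, and every shRALY library exceeded both controls. The mean was 2246 ± 64.6 CPM in shRALY and 1487 ± 32.8 CPM in shControl (SD, n = 2 each), a 1.51-fold rise (log2 fold change 0.60, SE 0.09; edgeR adjusted p = 1.47e-05). RPS19 shares 2.07% of its coding words with another gene. RPS26, RPS13 and RPS19 belong to the same subunit and moved in different directions.

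**Figure D1:**
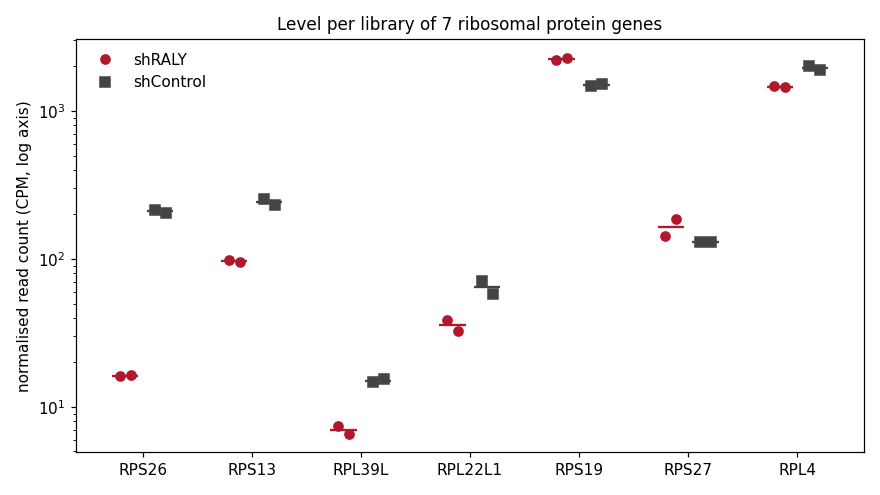
Normalised read count (CPM, log axis) of 7 members in each library, with shRALY as red circles, shControl as grey squares and the group mean as a line. RPS26 lies near 16 CPM in both shRALY libraries and at 213 and 206 CPM in the shControl libraries, while the shRALY libraries of RPS27 differ from each other, at 142 and 187 CPM.

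The subunits had similar shares of called genes and similar medians. Among the 31 small-subunit genes 4 were higher, 6 lower and 21 not called (32.3% called, median log2 fold change -0.04). Among the 46 large-subunit genes 6 were higher, 9 lower and 31 not called (32.6% called, median -0.06). The subunits differed in their extremes, with log2 fold changes from -3.68 to 0.60 in the small subunit and from -0.51 to 0.43 in the large subunit. Since members share libraries, these counts describe the lists and carry no test.

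The family took a slightly smaller part of the libraries in shRALY. All 87 genes held 3.94% and 3.75% of counts in shRALY libraries, against 4.16% and 4.14% in shControl libraries, without overlap. The exact binomial 95% intervals were 3.935% to 3.953% and 3.742% to 3.760% in shRALY libraries, against 4.152% to 4.170% and 4.131% to 4.150% in shControl libraries, and cover counting error only. With 2 libraries a group an exact permutation test cannot go below p = 0.33. Mitochondrially encoded genes took 8.88% and 8.66% of counts in shRALY libraries, against 7.67% and 6.99% in shControl libraries, and their part in the lower share was not tested. In bulk samples, fewer cells with a transcript and less of it per cell cannot be told apart.

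The summed counts of small-subunit genes were 0.672 and 0.674 of those of large-subunit genes in shRALY libraries, against 0.638 and 0.629 in shControl libraries. Without RPS19, a choice made after its value was seen, the ratios were 0.579 and 0.574 in shRALY libraries, against 0.579 and 0.568 in shControl libraries. The groups overlapped there. Without RPS26 and RPS13 as well, the ratios were 0.574 and 0.569 in shRALY libraries, against 0.560 and 0.551 in shControl libraries. The groups were again apart, so whether they separate depends on which of these 3 genes are counted.

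**Figure D2:**
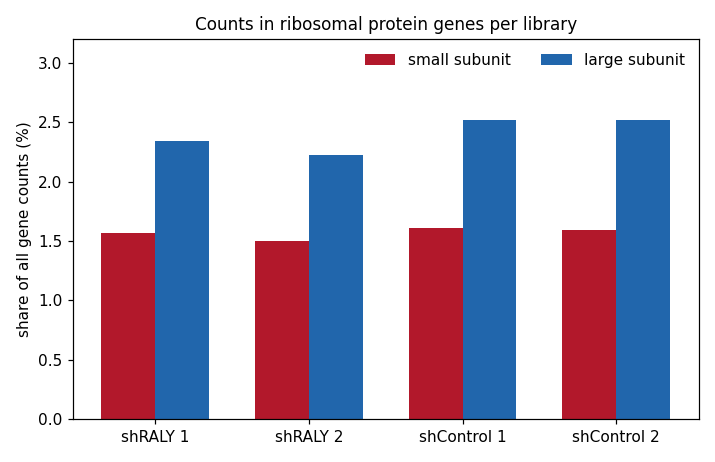
Share of all gene counts (%) held by small-subunit (red) and large-subunit (blue) genes in each library, shRALY left and shControl right. Large-subunit genes held 2.34% and 2.22% in shRALY libraries, against 2.52% in both shControl libraries; small-subunit genes held 1.57% and 1.5% in shRALY libraries, against 1.61% and 1.59% in shControl libraries.

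The other small-subunit members that fell did so by less than a factor of 1.5. RPS4X, a protein of the small-subunit body, had 602 and 539 CPM in shRALY libraries, against 840 and 770 CPM in shControl libraries (log2 fold change -0.50, SE 0.10; edgeR adjusted p = 0.000373). RPS23, a protein of the decoding centre, had 84.6 and 83.0 CPM in shRALY libraries, against 117 and 116 CPM in shControl libraries (log2 fold change -0.48, SE 0.11; edgeR adjusted p = 0.00109). Neither overlapped between groups, but with shRALY replicate 2 left out RPS4X did not pass (edgeR adjusted p = 0.0863), nor did RPS23 without shRALY replicate 1 (0.0579) or 2 (0.0809). RPS9, and RPS27A, which is made as a fusion with ubiquitin, were lower at log2 -0.41 and -0.26. The RPS27A call was lost in 7 of 18 alternatives, among them DESeq2 (adjusted p = 0.0625), RLE size factors (0.0543) and no filter on low counts (0.0563).

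Rises in the small subunit beside RPS19 were small. RPS27 had 142 and 187 CPM in shRALY libraries, against 131 and 129 CPM in shControl libraries (log2 fold change 0.34, SE 0.12; edgeR adjusted p = 0.0277). RPS21 had 163 and 182 CPM in shRALY libraries, against 138 and 138 CPM in shControl libraries (log2 fold change 0.32, SE 0.11; edgeR adjusted p = 0.0188). Both were highest in shRALY replicate 2, and without that library their log2 fold changes were 0.14 and 0.25 (edgeR adjusted p = 0.662 and 0.365). RPS12 was higher at log2 0.27.

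In the large subunit, falls were led by RPL18 and RPL4. RPL18 had 553 and 529 CPM in shRALY libraries, against 736 and 734 CPM in shControl libraries (log2 fold change -0.44, SE 0.10; edgeR adjusted p = 0.000796). RPL4, which lines part of the tunnel through which the new peptide leaves, had 1478 and 1443 CPM in shRALY libraries, against 2015 and 1905 CPM in shControl libraries (log2 fold change -0.42, SE 0.09; edgeR adjusted p = 0.000739). The groups of both were apart. With shRALY replicate 2 left out RPL18 did not pass (edgeR adjusted p = 0.0953), nor did RPL4 without shRALY replicate 1 (0.0559) or 2 (0.0824). The 7 other large-subunit members called lower, RPL27, RPL13A, RPL10A, RPL23, RPL3, RPL14 and RPL7A, lay between log2 -0.35 and -0.29, and RPL3 is the protein next to the site of peptide bond formation.

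The large-subunit members that rose are mostly short proteins. RPL39, which also lines the exit tunnel, had 172 and 191 CPM in shRALY libraries, against 137 and 133 CPM in shControl libraries (log2 fold change 0.43, SE 0.11; edgeR adjusted p = 0.00244). RPL38 had 86.7 and 113 CPM in shRALY libraries, against 74.8 and 78.0 CPM in shControl libraries (log2 fold change 0.38, SE 0.12; edgeR adjusted p = 0.016). Both were higher in shRALY replicate 2 than in replicate 1, and without it the log2 fold changes were 0.36 and 0.19 (edgeR adjusted p = 0.159 and 0.527). RPL36, RPL41 and RPL35 were higher at log2 0.33, 0.31 and 0.31, and RPL28 at 0.25. All 50-base coding words of RPL39 and RPL41 occur in other genes, which leaves their counts uncertain.

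Shorter members tended to have higher fold changes. Over the 82 tested members, the log2 fold change had a Spearman correlation of -0.325 with the length of the coding sequence, given as a description, since members share libraries. Of the 28 shortest coding sequences (75 to 399 bases) 8 were higher and 3 lower, and of the 27 longest (576 to 1281 bases) none was higher and 8 were lower, where 20.6% of all genes tested were higher and 20.4% lower. The difference between the 2 shRALY libraries, replicate 2 minus replicate 1, correlated with length at -0.376, while that between the shControl libraries had a correlation of -0.0616. The difference between the shControl libraries correlated instead with GC content (0.602), against 0.214 for the difference between the groups. A difference that runs with length was thus present within the shRALY group, and the part of length or GC content in the changes of the members was not tested. With offsets for GC content and transcript length, the median log2 fold change was -0.17 in the small subunit and -0.14 in the large subunit. It was -0.029 over all genes tested with the same offsets.

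**Figure D3:**
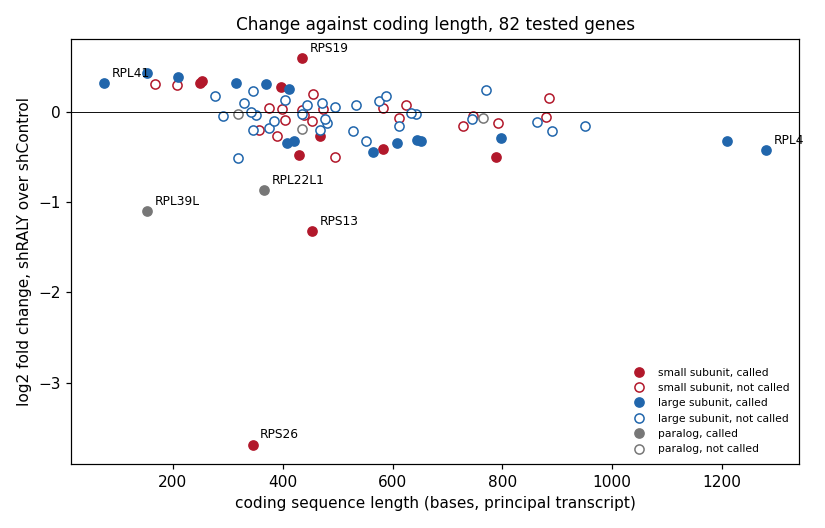
Log2 fold change (shRALY over shControl) of the 82 tested members against the length of their coding sequence in bases, by subunit, with filled points for members that passed the edgeR test. RPL41, the shortest at 75 bases, lies above 0, RPL4, the longest at 1281 bases, lies below it, and RPS26 and RPS13 lie far below members of like length.

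Several large-subunit proteins have a second gene. RPL39L, a paralog of RPL39 known from testis, had 7.40 and 6.60 CPM in shRALY libraries, against 14.6 and 15.5 CPM in shControl libraries (2.15-fold lower, log2 fold change -1.10, SE 0.19; edgeR adjusted p = 4.31e-05). It fell while RPL39 was called higher. RPL22L1 had 38.7 and 32.5 CPM in shRALY libraries, against 71.3 and 58.3 CPM in shControl libraries (1.82-fold lower, log2 fold change -0.86, SE 0.13; edgeR adjusted p = 1.16e-05). Its parent RPL22 had 119 and 104 CPM in shRALY libraries, against 129 and 111 CPM in shControl libraries, and did not pass (log2 fold change -0.10, SE 0.11; edgeR adjusted p = 0.501). The difference between paralog and parent was not tested. RPL39L and RPL22L1 share 0% and 4.73% of their coding words with other genes.

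The remaining paralogs gave no call. RPL26L1, RPL7L1 and RPL36AL had log2 fold changes of -0.18, -0.07 and -0.03, beside parents RPL26, RPL7 and RPL36A at -0.02, -0.08 and -0.51 (SE 0.23), none of which passed. RPL36A did pass once shControl replicate 2 was left out (edgeR adjusted p = 0.0368, log2 -0.66) and with GC content and length offsets (-0.61, 0.0207), and RPL26L1 and RPL7 passed with those offsets (0.0229 and 0.0111). RPL3L, a paralog known from muscle, had 4 and 7 reads in shRALY libraries, against 9 and 11 reads in shControl libraries, too few to test. RPL10L had no read in any library, which allows at most 0.161 to 0.179 CPM (3 counts, for counting error only), and RPL10 did not pass (log2 fold change -0.03). The 3 readthrough genes RPL17-C18orf32, RPL36A-HNRNPH2 and RPS10-NUDT3 had 0 to 2 reads in each library.

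The stalk proteins and the MDM2-binding proteins were not called, though several were near the threshold. Of the acidic stalk that binds elongation factors, RPLP0, RPLP1 and RPLP2 had log2 fold changes of -0.16, 0.00 and 0.23, and none passed (edgeR adjusted p = 0.173, 0.997 and 0.0711). RPL5 had 367 and 360 CPM in shRALY libraries, against 435 and 410 CPM in shControl libraries (log2 fold change -0.22, SE 0.10; edgeR adjusted p = 0.0869). RPL11, its partner in binding MDM2, had 290 and 283 CPM in shRALY libraries, against 268 and 274 CPM in shControl libraries (log2 fold change 0.08, SE 0.10; edgeR adjusted p = 0.556). RPL5 passed without shControl replicate 2 (edgeR adjusted p = 0.0165), with library size alone (0.0319), with the replicate block (0.0304) and with GC content and length offsets (log2 -0.31, 6.3e-05). RPLP2 passed without either shControl library (0.0268 and 0.021), with DESeq2 (0.049), with a filter at 10 CPM (0.046) and with the replicate block (0.0238). RPLP0 passed with the GC content and length offsets (log2 -0.27, edgeR adjusted p = 0.000222). MDM2 itself was higher (292 and 288 CPM in shRALY libraries, against 139 and 117 CPM in shControl libraries; edgeR adjusted p = 9.35e-09). Its relative MDM4 was not called, and CDKN2A, whose ARF product binds MDM2, was not tested, with at most 2 reads in a library.

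Per exonic length (TPM), RPL13A, RPL8, RPS12, RPS2 and RPL19 were among the highest members over all libraries, at 1623 to 2165 TPM. Lengths include every annotated exon, so members with long minor transcripts are understated. RPL13A was called lower and RPS12 higher, and RPL8, RPS2 and RPL19 were not called, at log2 0.24, -0.06 and 0.17. RPL8 passed in 7 of 18 alternatives, among them without shControl replicate 2 (edgeR adjusted p = 0.000706), and RPS2 passed as lower with GC content and length offsets (log2 -0.18, 0.0078). At the low end, RPS10 had 1.03 and 0.978 CPM in shRALY libraries, against 2.01 and 0.822 CPM in shControl libraries. Of the exonic bases of RPS10 39.4% lie in a gene on the same strand, the readthrough RPS10-NUDT3, and RPL17, which had 5.50 to 9.77 CPM, shares 32.7% in the same way. All 50-base coding words of both occur in other genes, so these levels are uncertain. Of the 82 tested members, 61 share over 20% of their coding words with another gene.

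Some ribosomal protein genes carry symbols outside the rule. FAU, which encodes the small-subunit protein eS30 as a fusion, had 196 and 197 CPM in shRALY libraries, against 153 and 170 CPM in shControl libraries (log2 fold change 0.28, SE 0.11; edgeR adjusted p = 0.0347). That call was lost without either shRALY library. It was also lost with library size alone (edgeR adjusted p = 0.0859) and against a 1.2-fold change (glmTreat adjusted p = 0.381). RACK1, a small-subunit scaffold, did not pass, at log2 -0.01 (SE 0.10; edgeR adjusted p = 0.971). It passed as lower with the replicate block and the GC content and length offsets together (log2 -0.1, edgeR adjusted p = 0.02).

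Genes that act with the ribosomal proteins were read from lists of their own. Of 20 TOP mRNAs that encode no ribosomal protein, 19 were tested, 1 was higher and 10 lower, with a median log2 fold change of -0.27, against -0.06 in the ribosomal protein genes. Over all genes tested 20.6% were higher and 20.4% lower. The initiation factor gene EIF3L had 68.5 and 71.4 CPM in shRALY libraries, against 127 and 120 CPM in shControl libraries (log2 -0.82; edgeR adjusted p = 2.2e-06). HNRNPA1, an RNA-binding protein gene, fell at log2 -0.75 and NPM1, a nucleolar chaperone gene, at -0.54, and VIM, the gene of vimentin, was the 1 that rose (log2 0.32). EEF1G, an elongation factor gene used by every cell, was listed at 0 in all libraries.

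Of 17 genes that control TOP mRNAs or mTORC1, 2 were higher and 6 lower, with a median of -0.20. RPS6KB1, the S6 kinase, EIF4EBP2 and TSC2 were lower at log2 -0.58, -0.57 and -0.52, LARP1, which binds the TOP start, at -0.40, and LARP1B and EIF4EBP1 were higher at 0.66 and 0.38. Of 10 chaperones and assembly factors of ribosomal proteins, 1 was higher and 1 lower, with a median of -0.13. GRWD1, the chaperone of RPL3, had 92.5 and 87.1 CPM in shRALY libraries, against 153 and 174 CPM in shControl libraries (log2 -0.87; edgeR adjusted p = 1.18e-06), and AAMP was higher at 0.37. TSR2, the chaperone of RPS26 as known from yeast, had 26.4 and 26.2 CPM in shRALY libraries, against 28.0 and 28.5 CPM in shControl libraries, and did not pass (log2 -0.10, SE 0.13; edgeR adjusted p = 0.586). Of 5 importins that carry ribosomal proteins, 4 were lower (IPO9 at log2 -0.80, IPO5 at -0.60, KPNB1 at -0.36 and IPO7 at -0.33), and TNPO1 was higher at 0.34. These counts stand beside the same 20.6% higher and 20.4% lower among all genes.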

How the data were processed

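Polyadenylated RNA of 4 A549 libraries was sequenced, and the authors deposited a file of raw read counts by Ensembl gene for each library. Per the submitters' processing notes, HISAT2 2.0.5, featureCounts 1.5.0-p3, DESeq2 1.20.0 and hg38 were used. No source used here gives the strand setting or the treatment of multi-matching reads. All 58735 identifiers matched GENCODE release 29, which supplied symbols, positions and lengths.

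The test was edgeR 4.0.16 under R 4.3.3, applied to the counts (filterByExpr with a minimum count of 10 and total of 15, TMM scaling, robust quasi-likelihood F-test, shRALY against shControl, 2 residual degrees of freedom, no covariate). The filter kept 15912 genes with 99.83% of counts. P-values were adjusted by Benjamini-Hochberg across all tested genes (threshold 0.05). The SE was taken as the size of the log2 fold change over the root of the F statistic. CPM use TMM-scaled library sizes. The test was checked on simulated counts. Shared words are 50-base words of the principal transcript's coding sequence found in any transcript of another gene.

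Members, lists and tests were chosen with earlier results of these data known. Named were RPS26, the 8 highest and 8 lowest called members, those highest per length, paralogs with their parents, readthrough genes, RPL5, RPL11, the stalk, FAU and RACK1, and up to 3 members and the exceptions of each list; other members named were chosen after their values were seen. Some items the rule takes are not reported here. Alternatives were DESeq2 1.42.0, other scalings and filters, a replicate block, GC content and length offsets, glmTreat against a 1.2-fold change, added pseudogene reads, and each library left out.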

Additional observations from a re-analysis of the deposited data

How the results depend on the processing

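The main numbers were 27 members called, 10 higher and 17 lower, and median log2 fold changes of -0.04 (small subunit) and -0.06 (large subunit). With GC content and length offsets 48 were called, 11 higher and 37 lower, with medians of -0.171 and -0.138. Over all genes tested 50.3% were called with these offsets, with a median of -0.029, against 41.0% in the main fit. With library size alone 6 were higher and the small-subunit median was -0.10. There 41.5% of all genes tested were called, with a median of -0.067. With glmTreat against a 1.2-fold change 9 were called, 1 higher and 8 lower, where 28.3% of all genes tested were called. Differences between replicates correlated at 0.072 between the 2 groups across 15912 genes. With 1 such difference in each group, this cannot decide whether the replicate numbers pair the libraries. With the replicate block 37 members were called, 15 higher and 22 lower, where 45.6% of all genes tested were called. With the replicate block and the GC content and length offsets 60 members were called, 16 higher and 44 lower. Their medians were -0.171 and -0.138, and 53.5% of all genes tested were called there. Leaving out 1 library gave 5 to 36 called, 1 to 14 higher and 4 to 23 lower, with medians of -0.055 to -0.018 in the small and -0.109 to 0.004 in the large subunit. The called share of all genes tested also fell without either shRALY library. It stayed close to its main value without either shControl library. The median over all genes tested was -0.022 to 0.004 with 1 library left out. The difference in the family's share of counts, -0.303 percentage points (shRALY minus shControl), ranged from -0.399 to -0.206 without 1 library. RPS26 kept its call in all 18 alternatives, as did RPS13, RPL39L, RPL22L1 and RPS19. Of 305 alternative values of uncalled named genes, 23 changed sign without passing the test. The causes of these shifts were not tested. Depth sets a floor of 0.161 to 0.179 CPM, the worth of 3 counts.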
